A study of Mus musculus with 6 samples.

Results

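RNA-seq of mouse peritoneal macrophages was examined for 9 myeloid C-type lectin receptors, Clec4e, Clec4d, Clec4n, Clec7a, Clec5a, Clec12a, Clec10a, Clec4a1 and Clec4a3. They were found by gene symbol among the 54532 genes of the deposited expression table, and all 9 were present in all 6 libraries. Of these, 8 had a mean of at least 1 FPKM (fragments per kilobase and per unit of library size) and were tested with the 9794 genes that passed this filter. Clec10a did not pass it.

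The series asked how muscone, a macrocyclic ketone from musk, acts on NLRP3 inflammasome activation. The cells came from the peritoneal cavity of wild-type C57BL/6J mice aged 6 to 8 weeks, drawn there by an injection of 3% thioglycolate 5 days earlier and cultured overnight. Control cells were untreated. Model cells received lipopolysaccharide (LPS, a bacterial cell wall component) at 500 ng/mL for 5.5 h and then ATP at 2 mM for 0.5 h, and MUS cells received the same plus muscone at 50 µM, started 5 h after LPS and 0.5 h before ATP. Each group had 2 libraries, and no group received muscone alone or LPS alone. The labels do not say whether the replicates came from separate mice or cultures, so p-values measure only the spread between these libraries. They give the replicate number as the batch, so each group had 1 library per batch.

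C-type lectin receptors are membrane proteins with which macrophages, neutrophils and dendritic cells sense carbohydrates, lipids and products of dying cells. Activating members signal through the adaptors Fcer1g or Tyrobp, or through a motif in their own tail, to the kinase Syk and then to a complex of Card9, Bcl10 and Malt1 that leads to NF-kB. Inhibitory members recruit phosphatases instead. Clec4e (Mincle) is known in macrophages as a gene that inflammatory stimuli switch on, and its protein pairs with that of Clec4d (MCL).

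Between 15526321 and 17135442 fragments on genes were recovered per library. The 9 macrophage markers checked passed the filter, with a summed level of 9588 to 14300 FPKM across the libraries. Most of this sum was Lyz2, at 7275 to 12007 FPKM. No T and NK cell or mast cell marker passed, while some of neutrophils, dendritic cells, B cells and eosinophils did and are given below. The 2 Control libraries stood apart from each other in several receptors, so values are given library by library. The per-million scale of the deposited FPKM also differed between groups: relative to the recovered fragment totals it was 1.45 and 1.34 in the Control libraries and 0.909 to 0.998 in the other 4. Rescaling to the fragment totals moved the median log2 fold change of all genes in Model vs. Control from 0.04 to -0.40, in MUS vs. Control from 0.04 to -0.39, and in MUS vs. Model from 0.01 to 0.02. Under voom that median was -0.50 in Model vs. Control. Downregulated calls against Control that appear only after rescaling or under voom include this shift of all genes. Estimates of the tested receptors against Control are therefore given on both scales. For the other named genes they are given in part, and for Src and Fyn only the lost call is stated. In bulk RNA, fewer cells of a type and less RNA per cell cannot be told apart.

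Of the 9 genes, 8 lie on chromosome 6 and Clec10a lies on chromosome 11 (70156197 to 70170834, GRCm38, as in the deposited table). Clec4n (123229843 to 123247021, plus strand), Clec4d (123262111 to 123275265, plus strand) and Clec4e (123281789 to 123289870, minus strand) follow each other with gaps of 15.1 kb and 6.52 kb, and Clec4d and Clec4e point toward each other. Clec4a1 and Clec4a3 lie 17.9 kb apart upstream of Clec4n, and Clec12a and Clec7a form a pair 96.3 kb apart. No other annotated gene overlaps any of the 9. Shared sequence was low: at most 0.686% of the 50-base stretches of the 8 tested receptors occur in another gene. For Clec10a the share was 9.02%, with its close relative Mgl2.

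The 250 bases before the transcription start are shown for 4 receptors, chosen after their levels were seen: the neighbours Clec4e and Clec4d, Clec5a, which like Clec4e differed most between the Control libraries, and Clec7a, whose 3 groups did not overlap. They are from RefSeq (GRCm38.p6), 5′ to 3′ on the gene's strand, and 7 of the 9 receptors had an entry. Capitals mark matches on either strand to the motif of C/EBP, TTNNGNAA, or of PU.1, GAGGAAG.
Clec4e (chr6:123289872-123290121, minus strand): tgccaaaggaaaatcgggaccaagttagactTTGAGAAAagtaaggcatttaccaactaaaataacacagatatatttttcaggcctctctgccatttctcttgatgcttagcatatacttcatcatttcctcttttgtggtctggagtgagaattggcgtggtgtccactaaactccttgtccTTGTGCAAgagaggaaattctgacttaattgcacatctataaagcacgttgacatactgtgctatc
Clec4d (chr6:123261857-123262106, plus strand): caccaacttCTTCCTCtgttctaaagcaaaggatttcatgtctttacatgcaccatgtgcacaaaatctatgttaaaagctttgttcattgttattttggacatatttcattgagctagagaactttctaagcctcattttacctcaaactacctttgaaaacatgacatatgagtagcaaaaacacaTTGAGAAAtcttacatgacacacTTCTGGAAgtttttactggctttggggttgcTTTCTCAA
Clec5a (chr6:40585806-40586055, minus strand): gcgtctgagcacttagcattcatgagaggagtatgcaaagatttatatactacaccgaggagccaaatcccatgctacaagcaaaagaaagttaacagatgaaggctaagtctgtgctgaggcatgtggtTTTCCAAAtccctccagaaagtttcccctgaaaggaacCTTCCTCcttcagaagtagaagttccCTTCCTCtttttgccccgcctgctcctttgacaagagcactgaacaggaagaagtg
Clec7a (chr6:129472780-129473029, minus strand): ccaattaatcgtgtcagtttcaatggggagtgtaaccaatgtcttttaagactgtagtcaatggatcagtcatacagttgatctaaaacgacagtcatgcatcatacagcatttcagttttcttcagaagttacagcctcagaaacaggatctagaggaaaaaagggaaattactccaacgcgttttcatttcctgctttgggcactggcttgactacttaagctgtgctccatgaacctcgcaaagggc
The C/EBP letters occurred at 2 places before Clec4e (-219 to -212 and -66 to -59 from the start), at 3 before Clec4d and at 1 before Clec5a. The PU.1 letters occurred at 1 place before Clec4d and at 2 before Clec5a. The letters searched for NF-kB (GGG and CC with 5 bases between them), AP-1 (TGANTCA) and the interferon response element (TTTC and TTTC with 2 bases between them), also on both strands, were in none of the 4 windows, and the Clec7a window held none of the 5 motifs. Among 32851 RefSeq promoters of the same length, 36.8% held the C/EBP letters, 10.6% those of PU.1, 45.8% those of NF-kB, 6.75% those of AP-1 and 2.98% those of the interferon element. Of the windows not shown, that of Clec4a1 held the NF-kB letters (-75 to -66 and -74 to -65) and those of PU.1. That of Clec12a held the letters of AP-1 (-213 to -207), C/EBP and PU.1, and Clec4a3 had no match. A match describes the letters and is not a measured binding site.

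In Model vs. Control, none of the 8 tested receptors was a differentially expressed gene (DEG, called by limma at an adjusted p not above 0.05 where the log2 fold change was also beyond 1 in either direction), while 15.1% of all tested genes were (9.5% higher and 5.56% lower). The highest estimate was that of Clec4e and the lowest that of Clec7a, and 2 receptors, Clec7a and Clec12a, had an unadjusted p under 0.05, against 33.6% of all genes. The median log2 fold change of the 8 was 0.32, beside 0.04 over all genes. In MUS vs. Model none was a DEG either, nor was any of the 9794 genes (0%). At an unadjusted p under 0.05 there were 0 of 8 receptors and 825 genes (8.42%), and voom on the recovered fragments also called 0. Other fits called a few of all genes: 2 higher and 2 lower with the replicate number as a block, and 5 and 2 with only the 2 groups compared. The study itself reported DEGs in this comparison with DESeq2, a test not repeated here. In MUS vs. Control, again, none of the 8 was a DEG, against 20.2% of all genes (11.3% higher and 8.91% lower), and Clec4n and Clec12a had an unadjusted p under 0.05, against 39.7%. For any single gene, 2 libraries against 2 allow an exact permutation p of 0.333 at the lowest.

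**Figure D1:**
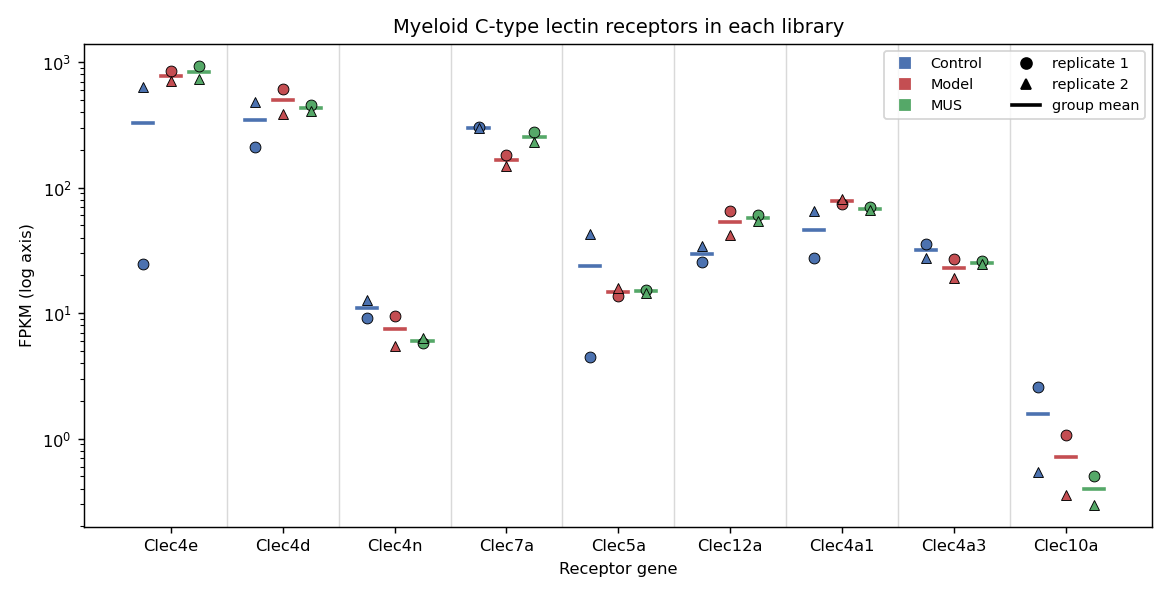
FPKM of the 9 receptors (log axis) in each of the 6 libraries, with the group as colour, the replicate as marker shape and the group mean as a line. Clec4e and Clec5a are far apart between the 2 Control libraries, at 24.7 and 628 FPKM and at 4.44 and 42.7 FPKM, while Clec7a is at 302 and 298 FPKM.

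Clec4e encodes Mincle, which senses mycobacterial glycolipid and products of dead cells. Its level was 24.7 and 628 FPKM in Control, 852 and 707 in Model, and 931 and 730 under MUS. Control replicate 2 thus stood close to the 4 stimulated libraries, and Control replicate 1 alone was low. These levels rested on 2807 and 71324 fragments in Control and on 54351 to 69893 in the others, and the ratio between the Control libraries was 25.4-fold. That gap was the fourth largest of all 9794 genes (4.61 on the log2 scale). By rank of level among the tested genes, Clec4e was in place 1230 in Control replicate 1 and in place 34 in Control replicate 2.

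The group means were 326 ± 426, 779 ± 103 and 831 ± 142 FPKM (SD, n = 2 in Control, Model and MUS). Model exceeded Control by a log2 fold change of 2.61 (SE 1.28, 95% interval -0.40 to 5.63, limma adjusted p = 0.199). Within batch 1 the log2 difference was 5.05 and within batch 2 it was 0.17. Without Control replicate 2, Clec4e was a DEG at 4.92 (adjusted p = 0.000624), and without Control replicate 1 it was at 0.31 (adjusted p = 0.683). Such a fit assumes that the single Control library left varies like the other groups. Rescaled to fragment totals, Control replicate 2 was at 838 FPKM, above the Model libraries at 775 and 705, and the estimate was 2.07 (adjusted p = 0.234).

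The MUS and Model libraries of Clec4e overlapped. For MUS vs. Model the estimate on the log2 scale was 0.09, with a 95% interval of -2.93 to 3.10 from a spread that all 3 groups share (adjusted p = 0.992). Without Control replicate 1 the same estimate had an interval of -0.66 to 0.84. In MUS vs. Control the estimate was 2.70 (adjusted p = 0.162), it was 5.00 without Control replicate 2 (adjusted p = 0.000629) and 0.39 without Control replicate 1 (adjusted p = 0.552), and after rescaling it was 2.17 (adjusted p = 0.210). Both comparisons with Control share the same 2 Control libraries.

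Clec4d encodes MCL, the partner of Mincle. Its level was 212 and 477 FPKM in Control, 606 and 388 in Model, and 458 and 406 under MUS. All 3 groups overlapped, and Control replicate 1 was again the lowest library. Model vs. Control gave a log2 fold change of 0.61 (SE 0.48, adjusted p = 0.409), and MUS vs. Model gave -0.17 (95% interval -1.31 to 0.97, adjusted p = 0.959). Within batch 1 Model lay above Control by 1.51 on the log2 scale, and within batch 2 the difference was -0.30. Rescaled to fragment totals, the estimate was 0.06 for Model vs. Control and -0.10 for MUS vs. Control, which on the deposited scale was 0.44 (adjusted p = 0.530).

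Clec4n encodes Dectin-2, which binds fungal mannans and, like Mincle, signals through Fcer1g. Although it is the next gene to Clec4d, it was expressed at a much lower level, with 9.12 and 12.8 FPKM in Control, 9.53 and 5.4997 in Model, and 5.82 and 6.29 under MUS. The 2 MUS libraries lay below both Control libraries, while Model and Control overlapped on the deposited scale. On the log2 scale Model differed from Control by -0.52 (SE 0.30, adjusted p = 0.266), MUS from Model by -0.23 (adjusted p = 0.889) and MUS from Control by -0.75 (adjusted p = 0.111). Rescaled to fragment totals Clec4n was a DEG in both comparisons with Control, at -1.02 (adjusted p = 0.0351) and -1.24 (adjusted p = 0.0156). Minus the median of all genes, these estimates were -0.62 and -0.85, and on the deposited scale -0.56 and -0.79. Clec4n rested on 121 to 417 fragments per library.

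Clec7a encodes Dectin-1, the receptor for fungal beta-glucan, which carries its own signalling motif. Both the deposited table and the annotation class this gene as a polymorphic pseudogene. Its level was 302 and 298 FPKM in Control, 183 and 150 in Model, and 276 and 230 under MUS. The groups did not overlap: both Model libraries lay below both MUS libraries, and both MUS libraries lay below both Control libraries, on the deposited scale and after rescaling. Such separation was common among all genes, at 61.1% in Model vs. Control, 42.1% in MUS vs. Model and 73.3% in MUS vs. Control.

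The means of Clec7a were 299.8 ± 2.77, 166 ± 23.1 and 253 ± 32.2 FPKM (SD, n = 2). Relative to Control, the log2 fold change of Model was -0.85 (SE 0.32, 95% interval -1.62 to -0.09, adjusted p = 0.115). It was -0.72 within batch 1 and -0.99 within batch 2. Rescaled to fragment totals it was -1.40 (adjusted p = 0.0166), and under voom it was -1.41 (adjusted p = 0.00948), so that Clec7a was a DEG in both. The call therefore depended on the scale, and the estimate was below 0 on each scale tried.

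MUS lay above Model by 0.60 for Clec7a (95% interval -0.16 to 1.37, adjusted p = 0.688), the largest difference among the 8 receptors in that comparison. It was 0.59 within batch 1 and 0.61 within batch 2, and 0.61 after rescaling. The difference did not pass the test. For Clec7a the MUS vs. Control estimate was -0.25 (adjusted p = 0.593). It was -0.79 after rescaling (adjusted p = 0.0735) and -0.79 under voom (adjusted p = 0.0561), and after quantile normalization Clec7a was a downregulated DEG at -1.17 (adjusted p = 0.0213).

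**Figure D2:**
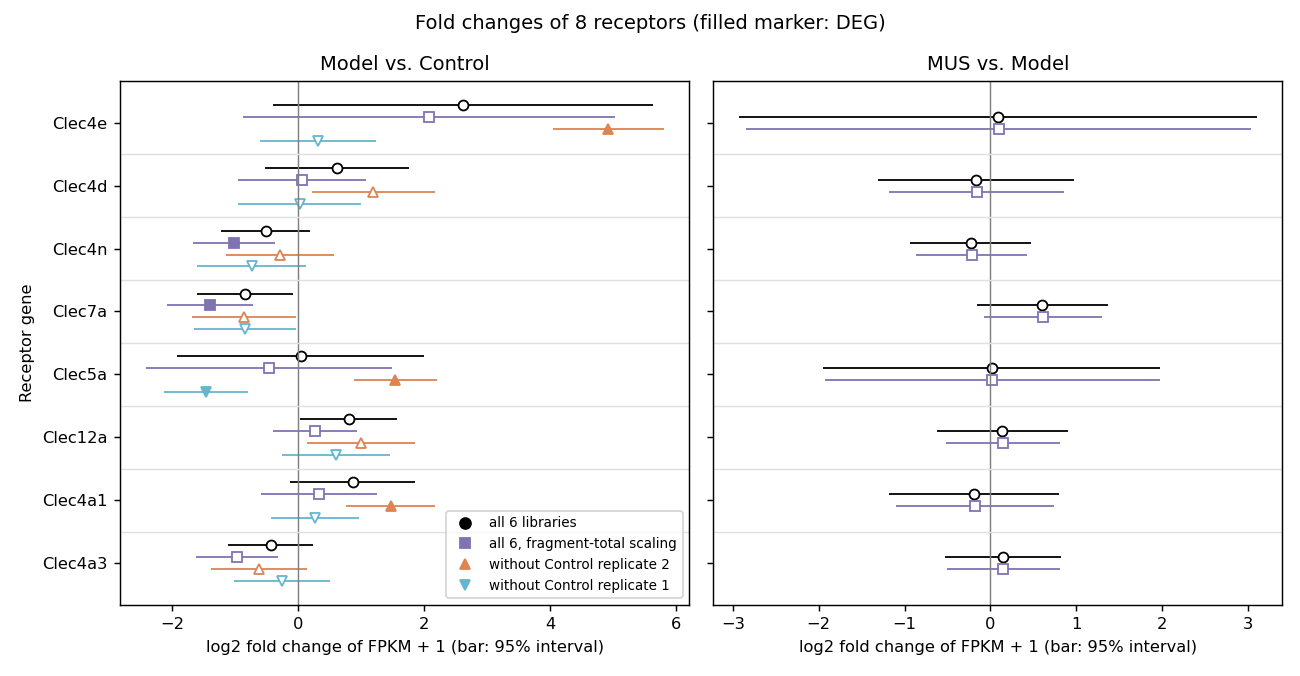
Log2 fold changes of FPKM + 1 for the 8 tested receptors, with Model vs. Control on the left, MUS vs. Model on the right, bars for 95% intervals and filled markers for DEGs. For Clec5a the Model vs. Control estimate is 1.54 without Control replicate 2 and -1.47 without Control replicate 1, and none of the MUS vs. Model estimates is a DEG.

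Clec5a (MDL-1) signals through Tyrobp and is known for sensing viruses in myeloid cells. Its level was 4.44 and 42.7 FPKM in Control, 13.7 and 15.9 in Model, and 15.4 and 14.5 under MUS. The 4 stimulated libraries lay close together and between the 2 Control libraries, which differed 9.61-fold on 390 and 3750 fragments. With all libraries the Model vs. Control estimate was 0.03 on the log2 scale (SE 0.83, adjusted p = 0.980). Without Control replicate 2 Clec5a was an upregulated DEG at 1.54 (adjusted p = 0.0116), and without Control replicate 1 a downregulated DEG at -1.47 (adjusted p = 0.0305). The within-batch differences were 1.44 and -1.37, so no direction can be given for it. After rescaling the estimate was -0.46 for Model vs. Control and -0.44 for MUS vs. Control.

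In MUS vs. Control the same held for Clec5a, with 1.55 without Control replicate 2 (adjusted p = 0.0103) and -1.45 without Control replicate 1 (adjusted p = 0.0261). In MUS vs. Model the estimate was 0.02 (adjusted p = 0.997). Its 95% interval was -1.95 to 1.98 with all libraries and -0.53 to 0.56 without Control replicate 1.

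Clec12a (MICL) is an inhibitory receptor that binds uric acid crystals. Its level was 25.6 and 34.1 FPKM in Control, 64.6 and 41.9 in Model, and 60.8 and 54.4 under MUS. Both stimulated groups lay above both Control libraries on the deposited scale. Model differed from Control by a log2 fold change of 0.80 (95% interval 0.03 to 1.56, adjusted p = 0.135), MUS from Control by 0.94 (0.17 to 1.70, adjusted p = 0.0750) and MUS from Model by 0.14 (-0.62 to 0.90, adjusted p = 0.945). After rescaling, Control was at 37.3 and 45.5 and Model at 58.7 and 41.9, so that these groups overlapped and the estimate was 0.26. For MUS vs. Control it was then 0.41 (adjusted p = 0.285).

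Clec4a1 and Clec4a3 belong to the group around Clec4a2, an inhibitory receptor. Clec4a1 was at 27.5 and 64.7 FPKM in Control, 74.0 and 81.4 in Model, and 70.1 and 66.0 under MUS. Control replicate 2 was near the MUS libraries, and both MUS libraries were below both Model libraries, by -0.19 on the log2 scale (95% interval -1.18 to 0.80, adjusted p = 0.942). In Model vs. Control the estimate was 0.86 (SE 0.42, adjusted p = 0.196), with 1.40 within batch 1 and 0.33 within batch 2. Without Control replicate 2 Clec4a1 was a DEG at 1.46 (adjusted p = 0.0168), and without Control replicate 1 the estimate was 0.26. After rescaling it was 0.32 for Model vs. Control and 0.15 for MUS vs. Control, which on the deposited scale was 0.67 (adjusted p = 0.273). Without Control replicate 2 MUS vs. Control was at 1.28, a DEG (adjusted p = 0.0235), and without Control replicate 1 at 0.07.

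Clec4a3, the neighbour of Clec4a1, was at 35.7 and 27.4 FPKM in Control, 27.0 and 19.2 in Model, and 25.9 and 24.6 under MUS. The MUS libraries lay inside the Model range and below both Control libraries. Model lay below Control by -0.44 on the log2 scale (SE 0.29, adjusted p = 0.315), and the MUS vs. Model estimate was 0.14 (adjusted p = 0.936). After rescaling the estimate in Model vs. Control was -0.98 (adjusted p = 0.0405), short of the fold threshold, and under voom Clec4a3 was a downregulated DEG at -1.01 (adjusted p = 0.0334). Minus the median of all genes it was -0.48 on the deposited scale, -0.57 after rescaling and -0.51 under voom. MUS vs. Control was at -0.30 on the deposited scale (adjusted p = 0.473) and -0.82 after rescaling (adjusted p = 0.0581).

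Clec10a (MGL1) binds galactose-type sugars and is known as a marker of alternatively activated macrophages. It was at 2.58 and 0.543 FPKM in Control, 1.08 and 0.356 in Model, and 0.502 and 0.297 under MUS, on 14 to 171 fragments. Control replicate 1 was the highest library, and the others were under or close to 1 FPKM. In a fit without the filter the log2 estimate was -0.49 for Model vs. Control (adjusted p = 0.556) and -0.27 for MUS vs. Model (adjusted p = 0.847).

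Within a library, the shares of the receptors do not depend on the per-million scale. Clec4e made up 3.85% of the summed FPKM of the 9 receptors in Control replicate 1 and 39.6% in Control replicate 2. In Model it made up 46.6% and 50.2%, and in MUS 50.5% and 47.7%. Clec7a was the most abundant receptor in Control replicate 1 (46.9%) and followed Clec4e and Clec4d in the other 5 libraries.

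The Clec7a share was 18.8% in Control replicate 2, 9.98% and 10.6% in Model and 14.95% and 15.02% in MUS. Clec4d kept a share of 24.8% to 33.1% throughout. The ratio of Clec4e to Clec7a was 0.0819 and 2.11 in the Control libraries, 4.67 and 4.71 in those of Model, and 3.38 and 3.17 in those of MUS. The 2 libraries of a stimulated group differed little in this ratio, and those of Control differed most. These shares were described and not tested.

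**Figure D3:**
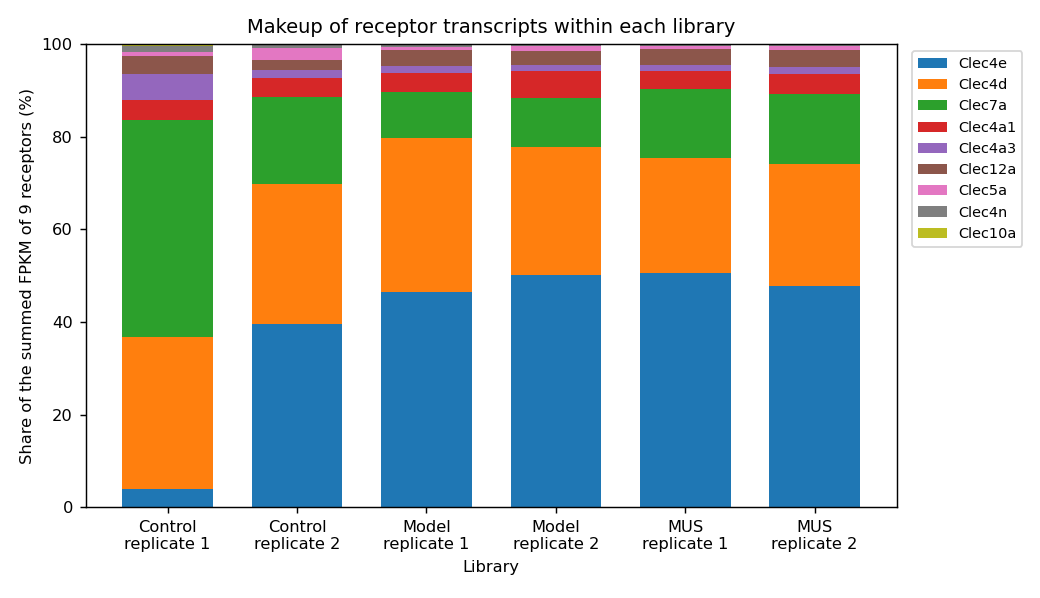
Stacked shares of the 9 receptors in their summed FPKM (percent) for each of the 6 libraries. Clec4e takes 3.85% in Control replicate 1 and 39.6% to 50.5% in the other 5 libraries, and the Clec7a share is 9.98% and 10.6% in Model and 14.95% and 15.02% in MUS.

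Across the 6 libraries, Clec4e and Clec4a1 had a Pearson r of 0.98 on log2(FPKM + 1), Clec4e and Clec4d one of 0.91, and Clec4a1 and Clec4a3 one of -0.85. These 6 points share the group differences and the low library Control replicate 1, and are given as a description. The genes closest in pattern to Clec4e were Fpr2, a formyl peptide receptor (0.997), Rab10 (0.996) and Snn (0.996), and 124 genes had an r over 0.95 with it. For Clec5a only 8 genes had an r over 0.95, led by G3bp1 (0.991), Dnajc10 (0.990) and Ampd3 (0.984). Closest to Clec7a were Pa2g4 (0.989), Htatsf1 (0.988) and Dapp1 (0.985), and closest to Clec12a were Vbp1 (0.999), Psmc2 (0.998) and Psma2 (0.998).

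For Clec4d the closest were 2500002B13Rik (0.991), Rrs1 (0.985) and Slc35d1 (0.984), and for Clec4n Lat (0.987), Ccnh (0.986) and Dcps (0.978). Those of Clec4a1 were Spata13 (0.996), Prkcd (0.995) and Ptpre (0.993), and those of Clec4a3 were Pon2 (0.997), Ndufa11 (0.995) and Dynll1 (0.990). None of the 8 receptors had another of the 8 among its 3 closest genes.

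Summed levels of marker sets of other cells differed between the groups in both directions. The summed level of 10 neutrophil markers was 52.9 and 53.7 FPKM in Control, 133 to 161 in Model and 120 to 121 in MUS. Only 3 of the 10 passed the filter, led by S100a8, and S100a9, Ly6g and Retnlg were listed at 0. S100a8 was at 13.5 and 30.6 FPKM in the Control libraries, and the other markers summed to 40.1 and 22.3, so the near-equal sums of these libraries combine opposite differences. For 8 dendritic cell markers, of which only Ccr7 passed the filter, the sum was 1.54 to 2.50, 7.36 to 7.46 and 5.88 to 8.49 FPKM in Control, Model and MUS. For 5 eosinophil markers, of which only Siglecf passed, the sum was lower in the stimulated groups. It was 2.95 to 4.19, 1.66 to 2.13 and 1.63 to 1.81 FPKM in the same order. For 6 B cell markers, of which only Ighm passed, Control (3.93 to 4.77 FPKM) and MUS (4.40 to 6.17) overlapped, and Model (5.60 to 6.12) lay above both Control libraries. The part of these cells in the receptor levels was not tested.

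The signalling list held 39 genes downstream of the receptors, with their adaptors, kinases, phosphatases and ligands, of which 35 were tested. In Model vs. Control 4 were upregulated, 4 were downregulated and 27 were not DEGs, beside 9.5% higher and 5.56% lower of all genes, and the median log2 fold change was 0.37 beside 0.04 over all genes. In MUS vs. Model 0 of 35 were DEGs, with a median of -0.03. In MUS vs. Control 4 were upregulated and 3 downregulated, beside 11.3% and 8.91% of all genes. Without either MUS library, or without Control replicate 1, fewer genes of the list and fewer of all genes were DEGs in MUS vs. Control. Without Control replicate 2 more of the list and more of all genes were. All 8 DEGs of Model vs. Control had the same direction in both batches and under every alternative fit. They were called from these same libraries, so this agreement was nearly fixed in advance and is no separate support. Lyn, Src, Fyn, Plcg2, Inpp5d and Nfatc1 each lost the call in at least 1 fit with 1 library left out.

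The adaptors that carry the signal of the receptors did not pass on the deposited scale. Fcer1g, used by the products of Clec4e, Clec4d and Clec4n, was at 355 and 307 FPKM in Control, 568 and 391 in Model, and 358 and 424 under MUS (0.51 in Model vs. Control, adjusted p = 0.355, and -0.03 after rescaling). Tyrobp, used by that of Clec5a, was at 674 and 397, 348 and 213, and 193 and 225 FPKM in the same order (-0.92, adjusted p = 0.176). Both Model and both MUS libraries lay below both Control libraries for Tyrobp. After rescaling Tyrobp was a downregulated DEG in Model vs. Control (-1.47, adjusted p = 0.0388) and in MUS vs. Control (-1.84, adjusted p = 0.0159), as it was under voom and quantile normalization. Hcst, a further adaptor, was at -0.02 in Model vs. Control (adjusted p = 0.981), and in MUS vs. Control it was a downregulated DEG after rescaling (-1.47, adjusted p = 0.0299) and under voom.

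Of the central complex, Syk was at 0.46 in Model vs. Control (adjusted p = 0.436), Card9 at -0.62 (adjusted p = 0.179) and Bcl10 at 0.99 (adjusted p = 0.111). After rescaling Syk was at -0.08, Bcl10 at 0.47 and Card9 at -1.07, a DEG (adjusted p = 0.0495). Malt1, the protease of the complex, was at 10.7 and 78.4 FPKM in Control, 117 and 218 in Model, and 262 and 231 under MUS. All 4 stimulated libraries lay above both Control libraries, with 2.40 in Model vs. Control (adjusted p = 0.0902) and a DEG in MUS vs. Control at 3.02 (adjusted p = 0.0386). Within batches 1 and 2 Model lay above Control by 3.34 and 1.46, and with the replicate block Malt1 was a DEG in Model vs. Control too (adjusted p = 0.0411). Against Control, Malt1 of MUS was no DEG after rescaling (2.50, adjusted p = 0.0515), after quantile normalization, with only the 2 groups compared, without the filter, or without any 1 library other than Control replicate 2. Whether the 2 comparisons differ is tested by MUS vs. Model, where Malt1 was at 0.62 and no DEG (adjusted p = 0.893). Its 95% interval there was -1.33 to 2.57, too wide to tell whether Malt1 differed between MUS and Model.

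Among the upregulated DEGs were Lyn, Src and Fyn, kinases that phosphorylate receptor tails. Lyn was at 25.1 and 40.9 FPKM in Control and 129.9 and 125 in Model (log2 fold change 1.95, SE 0.34, adjusted p = 0.0120). Src was at 2.68 (adjusted p = 0.0374) and Fyn at 1.08 (adjusted p = 0.0284). Fyn was not a DEG after rescaling to fragment totals, nor was Src. Lgals9, which encodes galectin-9, was at 24.4 and 33.0 FPKM in Control and 250.5 and 257 in Model, the largest rise of the list (3.12, SE 0.33, adjusted p = 0.00288).

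The downregulated DEGs were led by Cebpa, a transcription factor of myeloid differentiation. It was at 152 and 68.4 FPKM in Control, 11.4 and 10.9 in Model, and 4.54 and 6.33 under MUS, with -3.09 in Model vs. Control (SE 0.40, adjusted p = 0.00462). Cebpb, of the same family, was at 0.55 (adjusted p = 0.354) and at 0.01 after rescaling. Inpp5d, which encodes the inhibitory lipid phosphatase SHIP1, was at 15.1 and 8.41 FPKM in Control and 1.91 and 2.77 in Model (-1.90, SE 0.34, adjusted p = 0.0132). Plcg2, a phospholipase that acts after Syk, was at -1.13 (adjusted p = 0.0391) and Nfatc1, a transcription factor, at -1.15 (adjusted p = 0.0267).

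**Figure D4:**
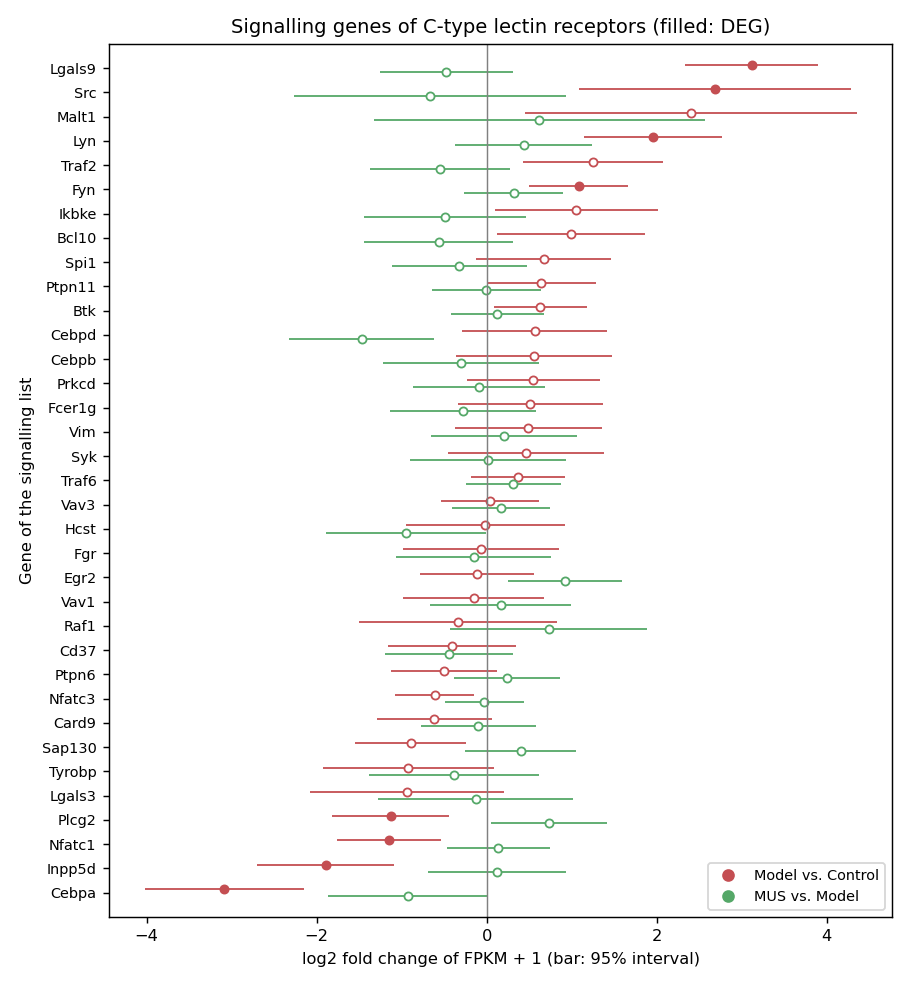
Log2 fold changes of FPKM + 1 with 95% intervals for the 35 tested genes of the signalling list, in Model vs. Control and in MUS vs. Model, with filled markers for DEGs. In Model vs. Control 4 genes are upregulated, led by Lgals9 at 3.12, and 4 are downregulated, led by Cebpa at -3.09, while none is a DEG in MUS vs. Model.

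Of 50 other C-type lectins, only 14 passed the filter. In Model vs. Control 4 were upregulated and 2 downregulated, 8 were not DEGs, and the median was -0.07, while 9.5% of all genes were higher and 5.56% lower. In MUS vs. Model 0 of 14 were DEGs, and in MUS vs. Control 4 were upregulated and 2 downregulated, beside 11.3% and 8.91% of all genes. Without either MUS library fewer of these lectins, and fewer of all genes, were DEGs in MUS vs. Control. All 6 DEGs of Model vs. Control had the same direction in both batches and under every alternative fit. Their choice from the same libraries made this nearly certain in advance. Without Model replicate 1 fewer of these lectins and fewer of all genes were DEGs in Model vs. Control, and without Control replicate 2 more of both were.

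The upregulated lectins were Cd69, an early activation marker, at 0.0806 and 1.44 FPKM in Control and 29.3 and 18.4 in Model (3.90, adjusted p = 0.00325), Clec2d, a ligand of natural killer cell receptors, at 2.83 (adjusted p = 0.00398), Klra2, of the Ly49 family, at 1.84 (adjusted p = 0.00577) and Klrk1 (NKG2D) at 1.21 (adjusted p = 0.0163). Cd93 was at 64.2 and 30.03 FPKM in Control and 8.17 and 11.3 in Model (-2.08, adjusted p = 0.0142), and Clec2i was at -1.70 (adjusted p = 0.0202). Mrc1, the macrophage mannose receptor, was not a DEG (-0.25, adjusted p = 0.513). Clec4a2, the relative of Clec4a1 and Clec4a3, was at -0.63 in Model vs. Control (adjusted p = 0.140) and at -0.93 in MUS vs. Control (adjusted p = 0.0401), under the fold threshold. After rescaling it was a downregulated DEG in both, at -1.15 (adjusted p = 0.0162) and -1.44 (adjusted p = 0.00677).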

How the data were processed

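The 9 receptors, the gene lists and the tests were chosen with earlier results of these data known. The authors deposited FPKM values in one table with 1 column per library. The study's methods name RSEM for quantification, whereas the submitters' processing notes name HISAT2, featureCounts 1.5.0-p3 and GRCm39. The positions in the deposited table match GRCm38, since starts and ends were identical for 98.3% of the 54409 genes that GENCODE M21 also lists. In each library the deposited FPKM times gene length was a whole multiple of the value of 1 fragment (100% of values within a tolerance of 0.1), so fragments per gene could be recovered. Intervals from such counts would cover counting error only. Values of 3 fragments in a gene of 1 kb correspond to 0.131 to 0.213 FPKM.

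limma 3.58.1 in R 4.3.3 was fitted with a mean-variance trend, and with the 6 libraries in 1 model of 3 groups, to log2(FPKM + 1) of 9794 genes whose mean FPKM reached 1 (3 residual and 4.04 prior degrees of freedom). Fold changes are on the log2(FPKM + 1) scale, which understates the change of low genes. The Benjamini-Hochberg adjustment ran over all genes tested in a comparison. A DEG had an adjusted p not above 0.05 and a log2 fold change beyond 1 in either direction. On simulated data the fit found 191 of 200 changed genes and called 10 of 9594 unchanged ones. The planted log2 changes were 2 or 3 in either direction, with normal noise of each gene's fitted spread and no library that stood apart. Smaller changes, and a gap like that between the Control libraries, were not simulated. The study's DESeq2 test was not repeated. The alternatives were other pseudocounts (0.1), filters (none, or a mean FPKM of at least 5), scalings, voom, no trend, only the 2 groups compared, a replicate block and leaving out each library. The labels give the replicate number as the batch, so numbers pair the libraries across groups. Differences between replicates 1 and 2 correlated across genes by 0.12 between Control and Model, by 0.14 between Model and MUS, and by -0.09 between MUS and Control. The result for 1 gene of the signalling list is not reported here. Named genes were the 9 receptors, the DEGs of both lists, 10 fixed adaptor, signalling and lectin genes, and the 3 genes with the highest r to each tested receptor. The marker genes and the inflammatory genes given outside these classes were named after their values were seen. Tables and figures were made in Python 3.11.15 with pandas 2.3.3 and Matplotlib 3.10.9.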

Additional observations from a re-analysis of the deposited data

How the results depend on the processing

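Of 456 refitted receptor fold changes, 394 kept their direction and their side of the threshold, 27 newly passed it and 35 changed direction. Fits that changed only the filter, the trend, the block or a group not compared keep the estimate itself. Their direction could therefore not change, and a receptor with an estimate within 1 of 0 could not become a DEG in them. The 394 thus include refits whose outcome was fixed in advance. In MUS vs. Model the count of receptor DEGs was 0 under every alternative. In Model vs. Control it was 2 after fragment-total scaling, 1 after quantile normalization and 3 under voom. Of all 9794 tested genes, 646 were then higher and 1554 lower, 707 and 715, and 684 and 2050, in the same order. In MUS vs. Control 1 receptor was a DEG under each of those 3 settings. The same settings called 738 higher and 1953 lower, 885 and 1102, and 758 and 2386 of all genes. Receptor calls also changed when 1 library was left out, as for Clec4e, Clec4a1 and Clec5a without Control replicate 2. Of the alternatives added after seeing the data, fragment-total scaling with the replicate block gave 2 receptor DEGs in Model vs. Control and 1 in MUS vs. Control. It called 685 higher and 1660 lower of all genes in the first and 811 and 2021 in the second. Leaving out a Control library on that scale changed receptor calls further. On the deposited scale the replicate block changed no receptor call (0 in each comparison), and in Model vs. Control it added Malt1 and Traf2 to the DEGs of the signalling list.

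Directions changed for Clec4d and Clec5a. For Clec4d the estimate was -0.36 in Model vs. Control after quantile normalization, and in MUS vs. Control it was -0.10 after fragment-total scaling, with or without the block, -0.10 under voom and -0.45 after quantile normalization. For Clec5a in Model vs. Control it was -0.46 after fragment-total scaling with or without the block, -0.0242 after median-ratio scaling, -0.25 after quantile normalization and -0.44 under voom, and in MUS vs. Control -0.44, -0.00271, -0.20 and -0.42. With 1 library left out, Clec5a ranged from -1.47 to 1.54 in Model vs. Control and from -1.45 to 1.55 in MUS vs. Control, and Clec4d from -0.15 to 1.02 in MUS vs. Control. Fragment-total scaling without Control replicate 1 gave -0.18 for Clec4e, -0.46 for Clec4d, -1.94 for Clec5a and -0.22 for Clec4a1 in Model vs. Control, and -0.0851, -0.62, -1.92 and -0.40 in MUS vs. Control. In MUS vs. Model the ranges with 1 library left out crossed 0 for Clec4e (-0.0876 to 0.26), Clec4d (-0.49 to 0.15), Clec4n (-0.58 to 0.12), Clec5a (-0.0842 to 0.12), Clec12a (-0.17 to 0.45) and Clec4a3 (-0.0901 to 0.38). The cause of these changes was not tested. Rescaling to fragment totals also turned the split of all DEGs in Model vs. Control from 930 higher and 545 lower to 646 and 1554, and in MUS vs. Control from 1107 and 873 to 738 and 1953. The signalling list had 8 DEGs in Model vs. Control, 11 after fragment-total scaling and 12 under voom. It had 4 with only the groups compared and 1 without the filter. The other lectins had 6, 8, 8, 4 and 2 in the same order. Of all tested genes, 684 were higher and 2050 lower under voom, and 541 and 256 with only the groups compared. Without the filter they were 228 and 32 of 30192.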

Other observations

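The 2 Control libraries also differed in inflammatory genes that are no receptors, chosen here after their values were seen. Il1b was at 0.550 and 34.2 FPKM in Control and 7646 and 4750.0 in Model, Il6 at 0.0901 and 0.864 and at 917 and 454, and Tnf at 8.62 and 183 and at 1510.5 and 1034. Among 612 genes whose log2 level rose by more than 2 from Control replicate 1 to the Model mean, Control replicate 2 had covered a median of 34.0% of that log2 distance. For Clec4e it had covered 93.8%, and 13 of the 612 genes, Clec4e included, were at least as far. The value was 37.8% for Il1b, 8.40% for Il6, 60.6% for Tnf, 6.86% for Nos2, 73.1% for Malt1 and 89.2% for Olr1, a lectin-like scavenger receptor. Control replicate 2 was thus near the Model level for Clec4e and far below it for Il6 and Nos2. Control replicate 1 was used both to pick the 612 genes and to measure the distance, which can by itself raise these percentages. Differences over 1 on the log2 scale between the 2 libraries of a group were found in 9.09% of tested genes in Control, 8.28% in Model and 1.80% in MUS, and in 4, 0 and 0 of the 8 tested receptors.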
